A study of Rattus norvegicus with 12 samples.

Results

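Astrocyte marker genes are described here across cultures of rat hippocampus in which glutamate receptors were or were not blocked. The 29 genes were chosen by name, as markers known for astrocytes, and probes were assigned to them through RefSeq transcript accessions, with the brightest probe standing for a gene. Of the 29, 27 had a probe, among the 21245 genes or unnamed targets that were tested. Hepacam and Sox9 had no matching probe and were not analysed here. All 27 passed the filter on dim probes.

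Hippocampal cells of Wistar rat embryos (embryonic day 18) had been in culture for 14 to 15 days, per the labels. Blocked cultures received 50 µM GYKI-52466, an antagonist of AMPA-type glutamate receptors, together with 10 µM MK-801, which blocks NMDA-type receptors. The groups were blocked 9 h, untreated 9 h, blocked 26 h and untreated 26 h, with 3 independent cultures each, and every culture was hybridised to its own one-colour Agilent array, 12 in all. The labels call the cultures neuronal and name neither a vehicle nor a step against glia. Each array read the RNA of a whole culture, so fewer astrocytes and less RNA per astrocyte cannot be told apart.

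Astrocytes clear glutamate from synapses, buffer potassium and water, exchange metabolites with neurons and are coupled to each other by gap junctions. Their genes are known to depend in part on neighbouring neurons: in rodent cultures, contact with neurons raises the expression of glutamate transporters. Cultures of embryonic hippocampus usually contain some astrocytes, which arise late in the growth of such cultures and continue to divide.

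Because 5 of the genes below were lower together in blocked cultures once the replicate number was taken into account, the 250 bases before their annotated starts are shown, with those of Gfap, the astrocyte filament gene, for comparison. Slco1c1 and F3 had no entry in the promoter table. They come from RefSeq (build GRCr8) and run in the direction of the gene, and all 6 genes lie on the minus strand. Capitals mark matches, on either strand, to TTGGC, the half-site of nuclear factor I, and to TTCNNNGAA, the STAT motif.
Fgfr3, chr14:81227210-81227459: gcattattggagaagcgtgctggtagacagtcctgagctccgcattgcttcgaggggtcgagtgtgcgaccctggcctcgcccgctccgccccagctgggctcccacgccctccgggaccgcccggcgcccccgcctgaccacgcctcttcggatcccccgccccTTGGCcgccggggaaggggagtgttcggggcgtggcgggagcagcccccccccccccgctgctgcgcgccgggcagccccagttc
Ttyh1, chr1:79144092-79144341: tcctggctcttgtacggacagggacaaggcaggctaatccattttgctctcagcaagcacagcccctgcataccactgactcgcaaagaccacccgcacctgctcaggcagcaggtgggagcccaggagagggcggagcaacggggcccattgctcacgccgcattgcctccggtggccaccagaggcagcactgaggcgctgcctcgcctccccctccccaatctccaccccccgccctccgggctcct
Mlc1, chr7:121946699-121946948: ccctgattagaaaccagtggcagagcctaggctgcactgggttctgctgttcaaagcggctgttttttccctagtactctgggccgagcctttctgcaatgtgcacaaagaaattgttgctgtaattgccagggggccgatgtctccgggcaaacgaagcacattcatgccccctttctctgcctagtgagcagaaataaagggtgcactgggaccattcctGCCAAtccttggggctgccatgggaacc
Acsbg1, chr8:63943279-63943528: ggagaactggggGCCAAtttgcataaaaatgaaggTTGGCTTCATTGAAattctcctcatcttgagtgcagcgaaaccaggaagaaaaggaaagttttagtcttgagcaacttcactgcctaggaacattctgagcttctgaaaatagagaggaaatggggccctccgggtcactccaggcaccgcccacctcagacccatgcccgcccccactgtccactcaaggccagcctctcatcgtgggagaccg
Aqp4 (the upstream one of its 2 listed starts), chr18:6798843-6799092: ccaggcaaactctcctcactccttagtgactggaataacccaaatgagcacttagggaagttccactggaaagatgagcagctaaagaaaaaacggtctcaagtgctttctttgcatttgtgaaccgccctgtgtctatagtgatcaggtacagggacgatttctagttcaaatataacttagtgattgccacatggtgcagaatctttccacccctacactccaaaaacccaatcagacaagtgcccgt
Gfap, chr10:88361662-88361911: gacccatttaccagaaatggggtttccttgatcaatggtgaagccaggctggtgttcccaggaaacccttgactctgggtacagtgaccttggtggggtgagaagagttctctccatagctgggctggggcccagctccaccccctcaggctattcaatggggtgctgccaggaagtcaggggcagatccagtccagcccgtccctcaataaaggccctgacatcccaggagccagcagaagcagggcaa

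Nuclear factor I and STAT proteins are known regulators of astrocyte genes. In these windows TTGGC stood 85 to 81 bases before the start of Fgfr3 (positions -85 to -81), at -28 to -24 of Mlc1 on the reverse strand, and in the Acsbg1 window at -238 to -234 on the reverse strand and at -215 to -211 on the forward strand. The Acsbg1 window also held TTCNNNGAA at -210 to -202, right after the forward TTGGC and without overlap. Neither motif was found in the Ttyh1, Aqp4 and Gfap windows. The table listed 33 windows for 24 of the marker genes, and 57.6% of them held TTGGC, against 40.3% of all 33469 windows of the table, each read over the same 250 bases. TTCNNNGAA was in 6.06% of the marker gene windows and in 7.67% of all windows. The other motifs searched, also on both strands, were TGACG, a half-site of cAMP response elements (6.06% of marker gene windows and 18.2% of all), TGANTCA, bound by AP-1 (3.03% and 6.34%), CACGTG, an E-box (0% and 5.59%), and the TATA box TATAAA (6.06% and 12.9%). These matches describe letters and not bound sites.

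All values below are log2 signals relative to the 75th percentile of the array, so that 0 is a probe as bright as that percentile, and probes of different genes cannot be ranked by them. The 3 defining markers were well above background on all 12 arrays. Gfap read 1.75, 1.98 and 2.66 in blocked 9 h cultures (replicates 1, 2 and 3) and 1.997, 2.32 and 2.64 in untreated 9 h cultures. At 26 h Gfap read 1.87, 2.497 and 3.02 in blocked and 2.05, 2.78 and 3.43 in untreated cultures. Replicate 3 was the highest of its group each time, and blocked and untreated arrays overlapped at both times. Aldh1l1, a folate enzyme used as a marker of most astrocytes, read -1.51, -0.96 and -1.29 in blocked 9 h cultures and -1.40, -1.41 and -1.39 in untreated 9 h cultures. At 26 h Aldh1l1 read -1.57, -1.004 and -1.31 in blocked and -1.03, -1.11 and -1.05 in untreated cultures. The 3 untreated arrays of each time lay close together, and the blocked ones lay on both sides of them. Aqp4, the water channel of astrocyte endfeet, had 3.27, 3.35 and 3.50 in blocked 9 h cultures and 3.76, 3.82 and 4.08 in untreated 9 h cultures, with no overlap. Its 26 h values, 3.76, 3.77 and 4.02 in blocked and 3.50, 3.84 and 3.93 in untreated cultures, did overlap.

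Several markers were too bright for the scanner. The probes of the glycolytic enzyme gene Aldoc, the cytoplasmic protein gene Ndrg2, the lipid carrier Apoe and the secreted matrix protein Sparcl1 were saturated on all 12 arrays, and that of the fatty acid carrier Fabp7 on 10. Before scaling, these 5 probes stayed within 15.68 and 16.16 log2 over all arrays, so their scaled values moved with the percentile of the array and not with the gene. They are left out of every count below, which leaves 22 genes. Aldoc has a second probe that was never saturated, which gave -0.11 ± 0.17 (SE) for the average effect of blockade. Part of the arrays were at the ceiling for a further pair of genes. Slc1a3 was saturated on 5 arrays, among them all 3 untreated 9 h arrays, and Aqp4 on 3, which were untreated 9 h replicate 1 and blocked 26 h replicates 2 and 3. Gjb6 was not well above background in replicate 1 of untreated 9 h and of blocked 26 h cultures.

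**Figure D1:**
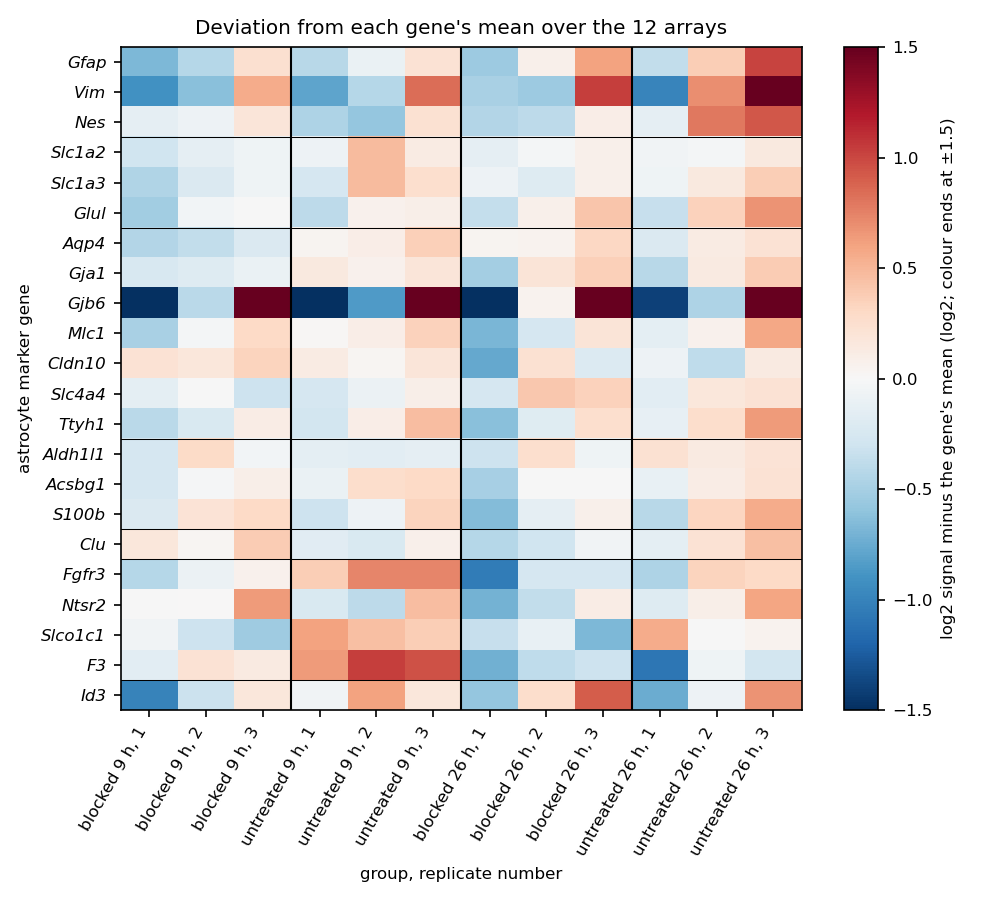
Log2 signal of the 22 readable marker genes on each of the 12 arrays minus the gene's mean over the arrays (colour, log2, ends at ±1.5), with columns for group and replicate number and rows in the order of their roles. Replicate 3 columns are mostly red and replicate 1 columns mostly blue in every group, and the row of Slco1c1 is blue in blocked and red in untreated 9 h cultures.

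Averaged over both times, 1 readable marker gene was lower in blocked cultures past the threshold, an adjusted p under 0.05. Slco1c1, which encodes a carrier for thyroid hormone, fell by 0.68 ± 0.14 on the log2 scale (SE, 1.60-fold, 3 arrays in each of the 4 groups, limma adjusted p = 0.0198). It read -0.13, -0.39 and -0.61 in blocked 9 h cultures against 0.53, 0.38 and 0.29 in untreated 9 h cultures. At 26 h it read -0.42, -0.19 and -0.75 in blocked against 0.49, -0.08 and -0.02 in untreated cultures. At both times every blocked array lay below every untreated array, which held for no other readable marker gene. This was not counted over all genes, so it does not set Slco1c1 apart from genes outside the list. Within scan day 1, which sets blocked 26 h against untreated 9 h arrays, Slco1c1 was at -0.86 ± 0.19 (adjusted p = 0.0165), and within day 2, which sets blocked 9 h against untreated 26 h arrays, at -0.50 ± 0.19 (adjusted p = 0.209). The call of Slco1c1 ended without blocked 9 h replicate 2 (adjusted p = 0.0533) and without all arrays of replicate number 1, 2 or 3 (adjusted p = 0.103, 0.278 and 0.145). Of the 22 genes, 1 was lower and 0 were higher by limma (4 at an unadjusted p under 0.05), and over all genes 4.45% passed, 2.22% as lower and 2.23% as higher. An unadjusted p under 0.05 was found for 3501 of all 21245 genes. Without untreated 26 h replicate 1 the count was 3. The median over the 22 genes was -0.20, against -0.02 over all genes tested, with 20 values below 0 and 2 above.

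Same-numbered blocked and untreated cultures of a time deviated together, so the replicate number was taken to pair them. This pairing was read from these data and is not stated in the labels. With the number as a block, 7 of the 22 genes were lower and 0 higher, where 13.2% of all genes passed, 6.99% as lower and 6.18% as higher. Leaving replicate 3 out of that fit left 1 gene, Fgfr3 (adjusted p = 0.0486), and 557 of all 21245 genes. The average effects are the same with and without the block, and Fgfr3, Ttyh1, Acsbg1, F3, Mlc1 and Aqp4 were past the threshold with it and not in the fit of all arrays without it. Some of them also passed under other settings: Fgfr3, F3, Ttyh1 and Acsbg1 with the slide as a block (adjusted p = 0.0089, 0.0410, 0.0148 and 0.0329), and Fgfr3 and F3 without untreated 26 h replicate 1 (adjusted p = 0.0318 and 0.0334). The arrays of a slide share their replicate number. The slide block therefore takes out the replicate number as well and is no separate check of the replicate block.

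Receptors and carriers held the largest of these. Fgfr3, a receptor for fibroblast growth factors on astrocytes and their progenitors, had -1.31, -0.96 and -0.82 in blocked 9 h cultures and -0.51, -0.15 and -0.14 in untreated 9 h cultures. At 26 h it had -1.93, -1.13 and -1.12 in blocked and -1.34, -0.54 and -0.58 in untreated cultures. Within every replicate number the blocked culture was the lower of the pair at both times. The average was -0.67 ± 0.19 (SE, 1.59-fold; limma adjusted p = 0.0882, and 0.0013 with the replicate block), and a second probe of Fgfr3 gave -0.76 ± 0.27. Within scan day 1 Fgfr3 was at -1.13 ± 0.27 (adjusted p = 0.0216) and within day 2 at -0.21 ± 0.27 (adjusted p = 0.793). F3, tissue factor, the cell surface trigger of blood clotting, read 1.46, 1.84 and 1.76 in blocked 9 h cultures against 2.27, 2.66 and 2.58 in untreated 9 h cultures. At 26 h F3 read 0.90, 1.24 and 1.31 in blocked and 0.54, 1.56 and 1.35 in untreated cultures. The groups of F3 were apart at 9 h and overlapped at 26 h, and its average was -0.40 ± 0.17 (limma adjusted p = 0.270, and 0.0237 with the replicate block). Within scan day 1 F3 was at -1.35 ± 0.24 and within day 2 at 0.54 ± 0.24, where the times differ along with the treatment. Ntsr2, the low-affinity receptor for neurotensin, had means of 2.28 ± 0.37 in blocked 9 h and 2.02 ± 0.46 in untreated 9 h cultures, and of 1.75 ± 0.42 in blocked 26 h and 2.23 ± 0.40 in untreated 26 h cultures (SD, n = 3 each). Its average effect of -0.11 ± 0.22 passed neither with nor without the block.

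Channels and their membrane partners came next. Ttyh1, a membrane protein of the tweety family, read 0.08, 0.25 and 0.59 in blocked 9 h cultures and 0.21, 0.58 and 0.94 in untreated 9 h cultures. Its 26 h values were -0.15, 0.29 and 0.73 in blocked and 0.36, 0.74 and 1.12 in untreated cultures. The groups overlapped at both times, and in each pair of one number the blocked culture was lower, with an average of -0.36 ± 0.19 (limma adjusted p = 0.415, and 0.0052 with the replicate block). Mlc1, a protein of astrocyte junctions at blood vessels that is mutated in a human leukodystrophy, read 0.41, 0.86 and 1.19 in blocked 9 h cultures and 0.91, 1.00 and 1.24 in untreated 9 h cultures. At 26 h Mlc1 read 0.21, 0.65 and 1.095 in blocked and 0.75, 0.96 and 1.48 in untreated cultures. All 6 pairs ran the same way here too, with an average of -0.32 ± 0.19 (limma adjusted p = 0.480, and 0.0283 with the replicate block). Aqp4 averaged -0.21 ± 0.10 (limma adjusted p = 0.348, and 0.0482 with the block). Its other 2 probes gave averages of -0.12 ± 0.26 and 0.081 ± 0.18, so that the probes of Aqp4 differ in sign.

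The other membrane genes did not pass in the average, with or without the block. The gap junction gene Gja1 had means of 1.38 ± 0.07 in blocked 9 h against 1.68 ± 0.06 in untreated 9 h cultures, and of 1.57 ± 0.46 in blocked 26 h against 1.59 ± 0.40 in untreated 26 h cultures (SD, n = 3 each). Its groups were apart at 9 h and nearly level at 26 h, for an average effect of -0.16 ± 0.17. Slc4a4, the sodium bicarbonate cotransporter gene, had means of 0.46 and 0.78 in blocked 9 h and 26 h cultures against 0.53 and 0.69 in untreated ones, an average effect of 0.01 ± 0.13. Cldn10, a claudin gene, had means of -4.56 and -5.04 in blocked 9 h and 26 h cultures against -4.68 and -4.90 in untreated ones, an average effect of -0.01 ± 0.15. For Gjb6, another gap junction gene of astrocytes, the average of 0.24 came with an SE of 1.11.

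Among enzymes and intracellular proteins, Acsbg1, an acyl-CoA synthetase for long fatty acids, read 3.30, 3.54 and 3.64 in blocked 9 h cultures and 3.45, 3.82 and 3.85 in untreated 9 h cultures. At 26 h Acsbg1 read 3.05, 3.54 and 3.55 in blocked and 3.44, 3.66 and 3.76 in untreated cultures. Blocked cultures were lower in all 6 pairs, with an average of -0.23 ± 0.12 (limma adjusted p = 0.401, and 0.0232 with the replicate block). Aldh1l1 averaged -0.04 ± 0.11. The calcium-binding protein gene S100b had means of 3.58 ± 0.27 in blocked 9 h against 3.46 ± 0.33 in untreated 9 h cultures, and of 3.24 ± 0.37 in blocked 26 h against 3.64 ± 0.51 in untreated 26 h cultures (SD, n = 3 each). The sign of its effect differed between the times, and the average was -0.14 ± 0.20.

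Filament genes did not pass. Gfap averaged -0.24 ± 0.28, Vim -0.32 ± 0.51 and Nes -0.26 ± 0.21. Nes had a mean of 1.86 ± 0.58 in untreated 26 h cultures, the highest of its groups, against 1.09 ± 0.30 in blocked 26 h cultures.

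Genes of glutamate uptake and use did not pass in the average either. The transporter gene Slc1a2 had means of 0.54 ± 0.12 in blocked 9 h against 0.88 ± 0.28 in untreated 9 h cultures, and of 0.68 ± 0.11 in blocked 26 h against 0.73 ± 0.11 in untreated 26 h cultures (SD, n = 3 each). The average effect on Slc1a2 was -0.20 ± 0.10. The transporter gene Slc1a3 averaged -0.31 ± 0.14 with saturated arrays at their ceiling and -0.34 ± 0.20 with its unsaturated probe. Glul, the glutamine synthetase gene, had means of 2.02 and 2.26 in blocked 9 h and 26 h cultures against 2.13 and 2.44 in untreated ones, an average effect of -0.14 ± 0.20. The secreted chaperone gene Clu had means of 3.68 ± 0.18 in blocked 9 h against 3.38 ± 0.16 in untreated 9 h cultures, and of 3.23 ± 0.19 in blocked 26 h against 3.66 ± 0.30 in untreated 26 h cultures. Its effects at the times had opposite signs and averaged -0.06 ± 0.12. For Id3, a target of BMP signalling that inhibits other transcription factors, the average was -0.19 ± 0.32.

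**Figure D2:**
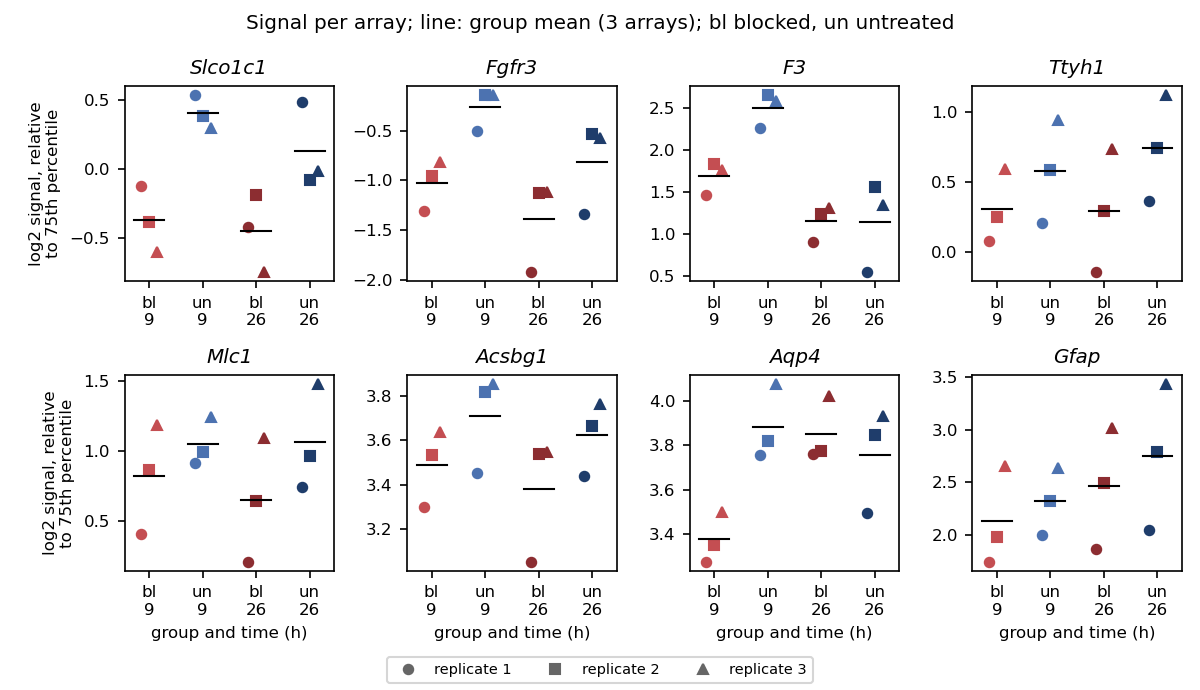
Log2 signal relative to the 75th percentile of the array (vertical axes, which differ between genes) in blocked (bl, red) and untreated (un, blue) cultures at 9 h and 26 h, for 7 genes past the threshold in the average with or without the replicate block and for Gfap. Symbols are replicate numbers and lines are means of 3 arrays; in blocked 9 h cultures replicate 1 is the highest for Slco1c1 and the lowest for each other gene shown.

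**Figure D3:**
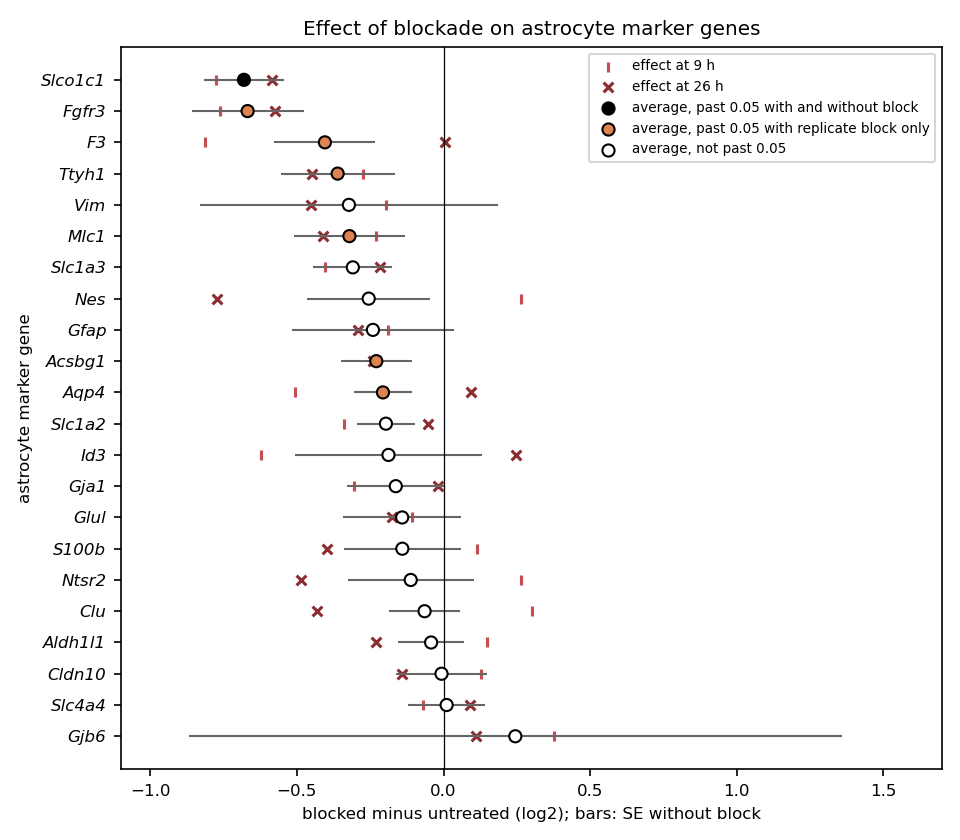
Blocked minus untreated (log2) for the 22 readable marker genes, as the average of both times (circles, with SE bars from the fit without block) and at 9 h (ticks) and 26 h (crosses). Most averages lie left of 0, and only Slco1c1 is past the threshold in both fits. The 9 h and 26 h effects of Nes, Id3, F3, Ntsr2, Clu and Aqp4, among others, lie far apart.

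The scan day is part of each effect at a single time, because blocked 9 h and untreated 26 h arrays were read on 1 day and untreated 9 h and blocked 26 h arrays on another. At 9 h Slco1c1 (-0.78 ± 0.19, adjusted p = 0.0183), F3 (-0.81 ± 0.24, adjusted p = 0.0386) and Aqp4 (-0.51 ± 0.14, adjusted p = 0.0295) were lower in blocked cultures by limma, 3 of 22 genes with 0 higher. Over all genes 21.1% passed at 9 h, 9.64% as lower and 11.4% as higher. Every blocked 9 h array lay below every untreated one for these 3 genes and for Fgfr3 and Gja1. How many of all genes did so was not counted, so this does not set them apart from other genes of the array. The Aqp4 value is a lower bound of the size for its brightest probe, since untreated 9 h replicate 1 was saturated, and the other probes gave -0.19 ± 0.36 and 0.26 ± 0.25. The count was 0 without blocked 9 h replicate 2 or untreated 9 h replicate 2, and 1 without blocked 9 h replicate 1 or 3 or untreated 9 h replicate 3. With the replicate block 9 genes passed, 8 lower and 1 higher, against 35.9% of all genes, 17.4% as lower and 18.4% as higher. The block added Fgfr3 (-0.76, adjusted p = 0.0017), Ttyh1 (-0.27, adjusted p = 0.0309), Acsbg1 (-0.22, adjusted p = 0.0490), Slc1a2 (-0.34, adjusted p = 0.0412) and Clu (0.30, adjusted p = 0.0443). It also added Slc1a3, at least 1.32-fold lower in blocked cultures since its untreated arrays were saturated (adjusted p = 0.0497 with the block). In the block without replicate 3 only F3 (adjusted p = 0.0490) and Fgfr3 (adjusted p = 0.0384) of these 9 were past the threshold, joined by Id3 (-0.94, adjusted p = 0.0224), while Slco1c1 (adjusted p = 0.0669) and Aqp4 (adjusted p = 0.0706) were not. That fit passed 2878 of all 21245 genes at 9 h.

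At 26 h no marker gene passed by limma (0 of 22, with 3 at an unadjusted p under 0.05), against 16.4% of all genes, 9.48% as lower and 6.88% as higher. An unadjusted p under 0.05 was found for 6849 of all 21245 genes at 26 h. Slco1c1 came closest (-0.59 ± 0.19, adjusted p = 0.0656). With the replicate block 9 genes were lower and 0 higher, where 31.7% of all genes passed, 18.4% as lower and 13.3% as higher. They were Slco1c1 (-0.59, adjusted p = 0.0139), Fgfr3 (-0.57, adjusted p = 0.0068), Ttyh1 (-0.45, adjusted p = 0.0048), Mlc1 (-0.41, adjusted p = 0.0217), Acsbg1 (-0.24, adjusted p = 0.0370), Ntsr2 (-0.49, adjusted p = 0.0099), S100b (-0.40, adjusted p = 0.0225), Clu (-0.43, adjusted p = 0.0127) and Nes (-0.77, adjusted p = 0.0159). A second probe of Nes, the filament gene of progenitor cells, gave -0.27 ± 0.38 at 26 h. In the block without replicate 3 none of the 22 genes passed at 26 h (Ttyh1 had adjusted p = 0.0843 and Fgfr3 0.0989). That fit passed 1040 of all 21245 genes at 26 h.

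The effects at 26 h and 9 h differed past the threshold for 2 of 22 genes, Aqp4 (0.60 ± 0.20, adjusted p = 0.0463) and Clu (-0.73 ± 0.24, adjusted p = 0.0440), where 28.6% of all genes passed, 12.7% with a positive and 15.9% with a negative difference. With the replicate block 6 of 22 passed, adding F3 (0.82), Nes (-1.04), Ntsr2 (-0.75) and S100b (-0.51), against 44.7% of all genes, 19.9% positive and 24.9% negative. The second probe of Nes gave 0.14 ± 0.54, the opposite sign. The 3 saturated arrays of Aqp4 all lie on the side that raises its difference, so that 0.60 is a lower bound for this probe. In the block without replicate 3 neither Aqp4 (adjusted p = 0.0852) nor Clu (adjusted p = 0.0750) passed, and Id3 did (1.19, adjusted p = 0.0158). This difference sets all arrays of one scan day against all arrays of the other, so that it and the scan day cannot be told apart.

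Culture time, averaged over blocked and untreated cultures and balanced over scan days, gave 1 of 22 marker genes past the threshold, where 12.7% of all genes passed, 7.78% as lower and 4.93% as higher at 26 h. F3 fell by 0.94 ± 0.17 at 26 h relative to 9 h (log2, SE, 1.92-fold, limma adjusted p = 0.0068). Its means were 1.15 ± 0.22 in blocked 26 h and 1.15 ± 0.53 in untreated 26 h cultures, against 1.69 ± 0.20 in blocked 9 h and 2.50 ± 0.21 in untreated 9 h cultures (SD, n = 3 each). The call ended without replicate 2 (adjusted p = 0.115) and without replicate 3 (adjusted p = 0.101).

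More marker genes differed between replicate numbers than in the average effect of blockade, which called 1 without the replicate block and 7 with it. At each single time 9 passed with the block. The test of the numbers takes out the group, while the fit without the block leaves the replicate spread in its error. Of 22 marker genes 15 differed between the numbers in all 4 groups together (limma, moderated F test, threshold 0.05), where 29.9% of all genes did. Replicate 3 was the highest of its group in all 4 groups for 13 of the 22, which held for 21.8% of all genes. It was singled out because earlier results of these same data had shown it to stand apart. Its values here describe that difference and do not test it. Replicate 3 minus the mean of replicates 1 and 2 had a median of 0.32 over the 22 genes, against 0.11 over all genes. Another scaling moves the median of all genes, by -0.13 with the array median or quantile normalization and by -0.14 with the deposited matrix, and the marker gene median was then 0.19, 0.30 and 0.18. The number of marker genes past the threshold was 13, 13 and 12 with these. Over all genes 6934, 5836 and 6415 passed, against 6354 of 21244 with the main scaling. The marker gene count was 1 of 22 without replicate 3, 7 without replicate 1 and 17 without replicate 2. Over all genes the test then passed 211, 3136 and 6261.

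The largest of these differences was in Gjb6. For each number the values follow in the order blocked 9 h, untreated 9 h, blocked 26 h and untreated 26 h. It read -3.91, -4.33, -2.65 and -3.43 in replicate 3. In replicate 2 it read -6.30, -6.74, -5.84 and -6.36, and in replicate 1 -7.69, -7.95, -8.25 and -7.29, of which -7.95 and -8.25 were not well above background. In every group replicate 3 was the brightest. The difference was 3.47 ± 0.26 (adjusted p of the F test 1.80e-04) with only 2 of the 4 replicate 1 arrays well above background, and 1.96 with normexp background correction, so no fold is given. Vim, the filament gene shared by astrocytes, progenitors and cells of mesodermal origin, read 2.98, 3.25, 3.45 and 4.06 in replicate 3. In replicate 2 it read 1.79, 1.99, 1.87 and 3.11, and in replicate 1 it read 1.51, 1.62, 1.93 and 1.42. Replicate 3 stood above both others in every group, by 1.53 ± 0.21 (2.89-fold, adjusted p = 0.0030). Gfap, whose values are given above, was higher by 0.78 ± 0.10 (1.72-fold, adjusted p = 0.0016).

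Id3 followed, at 0.72 ± 0.17 (1.64-fold, adjusted p = 0.0130). It read -1.40, -1.41, -0.67 and -0.91 in replicate 3 and -1.90, -0.98, -1.31 and -1.66 in replicate 2. In replicate 1 it read -2.58, -1.62, -2.16 and -2.32. Replicate 3 was above replicate 1 in all 4 groups and above replicate 2 in all but untreated 9 h cultures. Ntsr2 (0.68), Ttyh1 (0.55), Nes (0.54), Mlc1 (0.53), S100b (0.48), Glul (0.44), Clu (0.32), Fgfr3 (0.32), Aqp4 (0.25), Acsbg1 (0.22) and F3 (0.19) passed the same test. For Fgfr3, F3 and Acsbg1 the low number was replicate 1, with means of -1.27, 1.29 and 3.31 against -0.69, 1.82 and 3.64 in replicate 2.

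Other markers showed little of this. Aldh1l1 had a difference of -0.01 ± 0.10, with adjusted p = 0.256 for the numbers. Slc1a2 (0.10 ± 0.08, adjusted p = 0.176) read 0.64, 0.83, 0.78 and 0.85 in replicate 3, 0.58, 1.18, 0.69 and 0.68 in replicate 2 and 0.41, 0.64, 0.57 and 0.66 in replicate 1. Replicate 1 of Slc1a2 was the lowest in every group, and replicate 2 stood above replicate 3 only in untreated 9 h cultures. Slco1c1 was the only readable marker gene whose replicate 3 mean was the lowest, at -0.27 against -0.07 in replicate 2 and 0.12 in replicate 1 (difference -0.29 ± 0.10, adjusted p = 0.0857).

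**Figure D4:**
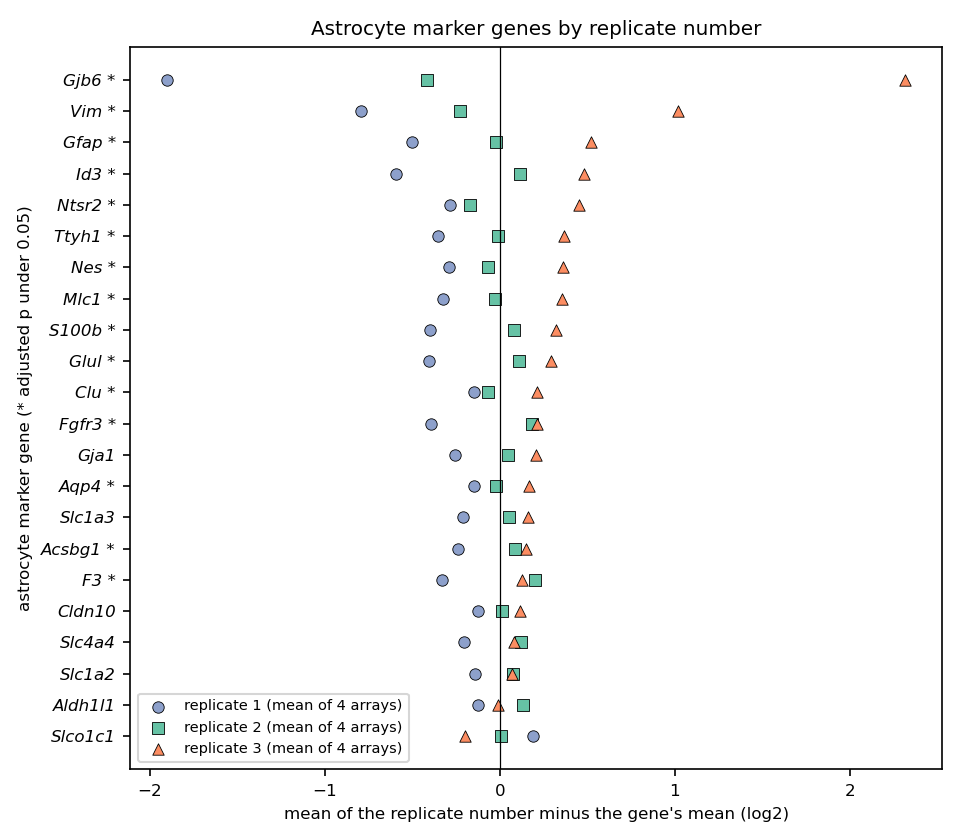
Mean of each replicate number over the 4 groups minus the gene's mean (log2), for the 22 readable marker genes, with an asterisk where the numbers differ past the threshold. Replicate 3 lies right of the others for most genes, by far for Gjb6 and Vim, and left of them for Slco1c1.

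Genes of some other cell types differed between the replicate numbers as well, where 29.9% of all genes did. Of 24 meningeal, fibroblast and vascular markers 18 were measured and 14 differed, 13 of them higher in replicate 3, with a median difference of 1.62. The summed linear signal of that list, in units of the 75th percentile, was 30.2 to 35.5 in replicate 3, 6.44 to 9.99 in replicate 2 and 2.16 to 3.89 in replicate 1. All 9 measured ependymal and choroid plexus markers were higher in replicate 3, where their sum was 16.0 to 21.9, against 1.78 to 3.01 in replicate 2 and 1.16 to 1.76 in replicate 1. The median of their deviations from each gene's mean rose less than the sum. It was 0.34 to 0.67 (log2) in replicate 3 and -0.64 to -0.25 in replicate 1. Ttr is on both this list and the meningeal one. Radial glia and progenitor genes (10 of 16, median 0.41; the list shares Vim, Nes, Slc1a3 and Fabp7 with the markers, and Fabp7 is not counted), proliferation genes (14 of 17, median 0.49) and oligodendrocyte lineage genes (9 of 17, median 0.42) differed too. Microglia genes (6 of 17, median 0.28) and pan-neuronal genes (4 of 17, median 0.00) were near that share of all genes. Of the genes on these lists, 1 microglia gene was well above background on fewer than 6 arrays. Their part in the marker gene differences was not tested.

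Between blocked and untreated cultures the meningeal and the microglia sums overlapped at both times. The meningeal, fibroblast and vascular sum was 2.16 to 34.6 in blocked 9 h, 3.89 to 35.5 in untreated 9 h, 3.03 to 34.6 in blocked 26 h and 3.53 to 30.2 in untreated 26 h cultures. The microglia sum was 4.04 to 5.00 in blocked 9 h, 3.91 to 4.58 in untreated 9 h, 4.39 to 5.06 in blocked 26 h and 5.00 to 5.22 in untreated 26 h cultures. Over all genes 4.45% passed in the average effect without the block, and 3501 of 21245 had an unadjusted p under 0.05. With the block 13.2% of all genes passed, 6.99% as lower and 6.18% as higher. None of the microglia or ependymal genes passed in the average effect, with or without the block (0 of 17 and 0 of 9; 0 of either at an unadjusted p under 0.05 without the block). Of 17 proliferation genes 0 passed without the block (4 at an unadjusted p under 0.05, median -0.38) and 13 were lower with it, among them Cenpf (-0.62), Ccnb2 (-0.59) and Cdk1 (-0.48), which act in mitosis. The proliferation sum was 3.63 to 5.06 in blocked 9 h against 5.43 to 8.03 in untreated 9 h cultures. At 26 h it was 4.76 to 7.04 in blocked against 4.73 to 6.64 in untreated cultures.

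The next counts stand against the same shares of all genes. These were 4.45% without the block and 13.2% with it, 6.99% as lower and 6.18% as higher. Of 17 oligodendrocyte lineage genes Cspg4, a proteoglycan of their progenitors, fell by 0.52 ± 0.12 in the average (limma adjusted p = 0.0395), and 6 were lower with the block, with Bcas1 (-0.67) and Sox10 (-0.51). The oligodendrocyte sum was 14.2 to 20.7 in blocked 9 h against 17.2 to 21.6 in untreated 9 h cultures, and 16.0 to 21.7 in blocked 26 h against 19.6 to 32.3 in untreated 26 h cultures. Of 18 meningeal and vascular genes Abcc9, well above background on 9 arrays, rose by 1.22 ± 0.22 (adjusted p = 0.0122) and Kdr fell by 0.66 ± 0.13 (adjusted p = 0.0208) by limma. With the block 2 were higher and 3 lower, Tagln (-1.21) included. Pan-neuronal genes had 0 of 17 past the threshold (5 at an unadjusted p under 0.05) and 4 with the block, 2 higher (Elavl4 at 0.41) and 2 lower (Nefl at -0.35 and Nefm at -0.33). Whether these lists take part in the lower marker genes was not tested.

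Other genes of astrocyte biology were read from further lists, whose counts stand against 4.45% of all genes in the average without the block and 13.2% (6.99% lower) with it. Their counts at an unadjusted p under 0.05 stand against 3501 of all 21245 genes. Of 26 reactive astrocyte genes, Ptgs2, the inducible prostaglandin synthase that neurons also make, fell by 1.95 ± 0.21 (3.85-fold, adjusted p = 5.88e-04), and Aspg, an asparaginase, fell by 1.41 ± 0.31 (2.65-fold, adjusted p = 0.0299). None of the 26 rose, and the block added Emp1 (-1.07). Of 25 genes for secreted factors that act on synapses, Bdnf, which neurons also make, fell by 2.59 ± 0.11 (6.04-fold, limma adjusted p = 3.90e-06). On that list Chrdl1, a BMP antagonist that matures AMPA receptor synapses in mouse, fell by 0.90 ± 0.19 (1.86-fold, adjusted p = 0.0250), and Tgfb3 rose by 1.12 ± 0.08 (2.18-fold, adjusted p = 5.01e-05). The median of the reactive list was -0.22 and that of the secreted factors -0.22. Whole cultures were read, and whether these changes arose in astrocytes or in neurons was not tested.

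Of 36 genes of the Notch, BMP, FGF and STAT pathways and of astrocyte transcription factors, Nfib rose by 0.52 ± 0.06 (1.43-fold, adjusted p = 0.0013) and none fell. With the replicate block 5 were lower, among them the ligand gene Bmp4 (-0.73) and the transcription factor gene Sox8 (-0.55). None of 20 genes for potassium, bicarbonate, water and metabolite transport passed (3 at an unadjusted p under 0.05). With the block the amino acid transporter genes Slc7a10 (-0.43) and Slc38a3 (-0.29) were lower and the anion exchanger gene Slc4a3 (0.24) was higher. Of 24 genes for energy, lipid and glycine metabolism 0 passed (4 at an unadjusted p under 0.05) and 5 were lower with the block, among them Cbs (-0.69), Phgdh (-0.29) and Cpt1a (-0.26). Of 16 radial glia and progenitor genes 0 passed (4 at an unadjusted p under 0.05) and 2 were lower with the block, the Notch modifier gene Lfng (-0.72) and the Notch target gene Hes1 (-0.31). Several of these shares, such as 2 of 16 radial glia genes, 3 of 20 transport genes and 6 of 36 pathway genes with the block, lie near that of all genes.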

How the data were processed

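RNA of 12 cultures (TRIzol, 200 ng, Cy3, per the labels) was read on 1-colour arrays, on 6 slides scanned on 2 days. Each slide held arrays of a single replicate number, so differences between the numbers are also differences between slides. Agilent Feature Extraction (10.5.1.1, per the file headers) made the processed signal, an intensity after background correction. A second table from the authors, the deposited log2 matrix, rises with log2 of the processed signal at a slope of 1.000 and has column medians of 7.57 to 7.75. What was subtracted from each column of that matrix was not stated. Between 77.6% and 86.8% of the 42877 spots of an array were well above background, which limits what can be read.

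Control spots were left out, 3751 outlier spot values were dropped, spots of a probe were averaged, and the 75th percentile of the array was subtracted from log2 of the processed signal. A probe had to be well above background on each array of some group (24029 of 30367 were kept). By RefSeq accession 18004 probes were matched to genes, 12363 kept their own name, and the brightest kept probe stood for a gene. All 21245 genes and targets (21244 for the replicate number) entered 1 fit with a mean per group (limma 3.58.1, R 4.3.3, lmFit and eBayes, two-sided, Benjamini-Hochberg over all of them, threshold 0.05 on the adjusted p). The replicate number was tested by a moderated F test beside the group. The fit was tested on simulated data. Marker genes saturated on 10 or more arrays were left out of counts. In the other lists such genes stayed in the counts and were left out of the sums (3 metabolism, 2 synapse factor, 1 radial glia and 1 pan-neuronal gene), and none of them was past the threshold in the average or for the replicate number. The labels call the 3 samples of a group independent cultures.

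Deviations from the group means correlated at 0.177 to 0.657 between blocked and untreated arrays of one number and time, above 0.1 in all 6 pairs, so the number was taken to pair them. The labels say nothing of shared preparation. Between times the same-number correlations ran from -0.04 to 0.68 with a median of 0.49. For unlike numbers between times the median was -0.13. The block used the same replicate terms in all 4 groups, so it took the number as shared between the times too.

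The genes, all lists and the comparison of replicate 3 with the other numbers were chosen with earlier results of these data known. All 29 genes are accounted for. Values on every array are given for Gfap, Aqp4 and Aldh1l1, for genes past the threshold in the average with or without the block, for the 4 of the largest replicate 3 difference (Gjb6, Vim, Gfap and Id3) and for the 2 of the smallest absolute one (Aldh1l1 and Slc1a2); the others are given by group mean, range or count. Of each other list, up to 3 genes with the largest average effect past the threshold are named. The 12 other lists cover reactive astrocyte genes, transport, metabolism, Notch, BMP, FGF and STAT control, secreted synapse factors, radial glia, microglia, oligodendrocyte lineage, meningeal and vascular, ependymal, proliferation and pan-neuronal genes. Alternatives were other scalings, normexp background, the deposited matrix, no dim filter, the mean of probes, outlier spots kept, replicate and slide blocks, single scan days and arrays left out. An unsaturated probe and the block without replicate 3 were added after seeing the data.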

Additional observations from a re-analysis of the deposited data

Results flagged for a closer look

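In 2 marker genes the effect of blockade differed between the times by limma. For Aqp4 the effect at 26 h minus that at 9 h was 0.60 ± 0.20 (SE, adjusted p = 0.0463): the effect was 0.10 at 26 h and -0.51 at 9 h. Untreated 9 h replicate 1 and blocked 26 h replicates 2 and 3 were saturated for this probe of Aqp4, all on the side that raises the difference, so that 0.60 is a lower bound for the probe. For Clu the difference was -0.73 ± 0.24 (adjusted p = 0.0440): the effect was -0.43 at 26 h and 0.30 at 9 h. Over all genes 28.6% passed this test, and the difference and the scan day cannot be told apart. The Aqp4 value was -0.37 with a probe that was never saturated. In the block without replicate 3 neither gene passed (adjusted p = 0.0852 for Aqp4 and 0.0750 for Clu).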

How the results depend on the processing

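The average effect of blockade called 1 of 22 marker genes. It called 0 with the deposited matrix, 5 with the slide as a block, 7 with the replicate block, 3 within scan day 1 and 0 within scan day 2, 0 to 3 with 1 array left out and 0 to 2 with a replicate number left out. Of all 21245 genes 945 passed in the main fit, 757 with the deposited matrix, 2304 with the slide block and 2799 with the replicate block. Within scan day 1 the count over all genes was 2892, and within day 2 it was 751. Slco1c1 stayed below 0 under all 28 alternatives (-0.86 to -0.50) and lost its call under 8 of them: with the median (adjusted p = 0.0625), with the deposited matrix (0.0665), without blocked 9 h replicate 2 (0.0533), without replicate 1 (0.103), 2 (0.278) or 3 (0.145), in the block without replicate 3 (0.101) and within scan day 2 (-0.50, adjusted p = 0.209). F3 turned to 0.54 within scan day 2 (-1.35 within day 1), and Aqp4 to 0.081 with its unsaturated probe, 0.26 at 9 h and -0.37 for the difference between the times. At 9 h the main count of 3 became 5 with quantile normalization and 9 with the replicate block (0 to 4 with 1 array left out, 0 to 3 without a number). Of all 21245 genes 4479 passed at 9 h in the main fit and 5373 with quantile normalization. At 26 h the count of 0 became 9 with the replicate block (0 to 2 and 0 to 1). The difference between the times called 2, and 0 without the dim filter, 1 with the mean of probes, 6 with the replicate block, 1 with unsaturated probes and 1 in the block without replicate 3, which was Id3 (0 to 2 and 0 to 1). For this difference 6076 of all 21245 genes passed in the main fit, and 7724 of 26896 without the dim filter. The mean of probes gave 5714, unsaturated probes 6101 and the block without replicate 3 4535. Time called 1 gene, 4 with the replicate block (F3 and Fgfr3 lower at 26 h, Gfap and Glul higher), 3 with the slide as a block and 2 with unsaturated probes (1 with any 1 array left out, 0 to 1 without a number). Over all genes 26.8% passed for time with the replicate block. Of all 21245 genes 2700 passed for time in the main fit, 5187 with the slide block and 2709 with unsaturated probes. The count for the replicate number was 15, and 12 to 16 with 1 array left out and 1 to 17 with a number left out. The slide as a block gives no value at a single time, since the groups of a time share no slide. It also takes out the replicate number, since the arrays of a slide share that number. Where a call changed, the cause was not tested. Arrays left out of a group leave 2, and the precision is limited by 3 arrays a group, by signal over background for Gjb6 and by the ceiling for 5 genes.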
